A study of Mus musculus with 24 samples.

Results

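The comparison described here set thoracic aortas of mice that ate celecoxib against aortas of mice that ate chow without drug, all collected after an injection of interleukin-1β. Its members were the 8 celecoxib and the 8 control columns of a deposited gene count table, picked by their column names, which makes 16 of the 24 libraries in the series. The other 8 libraries came from mice fed rofecoxib, a second selective cyclooxygenase-2 inhibitor, and entered the fit to help estimate the spread between libraries; they also served to describe the library sets and for a brief comparison of the drugs. All mice were C57BL/6 males, labelled wildtype, adult and 10 to 12 weeks old. The celecoxib group received the drug in chow at 100 mg/kg/day for 3 weeks, the control group received chow alone for the same time, and the rofecoxib group received 50 mg/kg/day. Mice of both groups compared here were injected intraperitoneally with 10 ug/kg interleukin-1β. Aortas were collected 4 h later, at zeitgeber time 11. The labels call the 8 libraries of each group biological replicates. No group went without interleukin-1β, so its own effect was not measured.

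Celecoxib inhibits cyclooxygenase-2, the product of Ptgs2, an enzyme that makes the precursor of prostaglandins and prostacyclin from arachidonic acid. Interleukin-1β acts through its receptor on NF-kB and MAP kinases, and in vessel wall cells it induces Ptgs2, chemokines and adhesion molecules. Glucocorticoids, released during systemic inflammation, induce genes that dampen this response, among them the phosphatase gene Dusp1 and the mTORC1 inhibitor gene Ddit4. The aorta consists of contractile smooth muscle, an endothelial lining and a fibroblast-rich adventitia, and its outer side carries fat, nerves and blood cells.

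Each library held between 21668798 and 21700121 counted reads. Levels are given as CPM (counts scaled to library size) after TMM scaling, and differences as log2 fold changes of celecoxib over control with their standard error (SE). A gene was called at a Benjamini-Hochberg adjusted p under 0.05 in edgeR's quasi-likelihood test over the 14528 genes that passed the expression filter. The labelled tissue was borne out by its markers: the smooth muscle actin gene Acta2 averaged 15290 CPM with celecoxib and 13630 CPM in control, and the endothelial adhesion gene Pecam1 averaged 336 and 290 CPM. All 16 smooth muscle, 16 endothelial and 12 adventitial fibroblast markers passed the filter, whereas 0 of 8 mesothelial markers did.

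The libraries fell into separate sets in a measure that the labels do not mention. Processed pseudogenes, intronless copies of other genes, took 0.103% to 0.137% of the reads in all 8 controls and in replicates 1 to 4 of each drug group. In replicates 5 to 8 of celecoxib and of rofecoxib they took only 0.0452% to 0.0639%, and no library lay between. The first set is called pseudogene-rich below and the second pseudogene-poor, a split made after seeing the data. Because the pseudogene-poor set held 4 celecoxib, 4 rofecoxib and 0 control libraries, drug and set cannot be told apart for those celecoxib libraries. The pseudogene-rich set allowed a comparison within it, of celecoxib replicates 1 to 4 with all 8 controls. Within the drug groups, a term for the set alone called 908 genes, which is 6.25% of those tested. Library construction took 3 days, per the labels, and the day of each library is not known here.

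**Figure D1:**
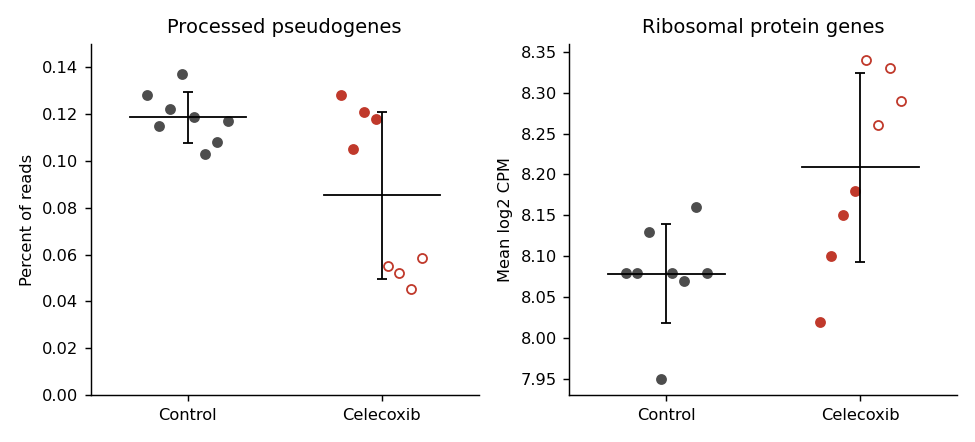
Left, percent of reads on processed pseudogenes, and right, mean log2 CPM of 74 cytosolic ribosomal protein genes, for each control and celecoxib library; filled points are pseudogene-rich libraries, open points pseudogene-poor ones, and bars give the mean and SD of 8 libraries. The 4 open celecoxib points lie at or below 0.0584% on the left and at or above 8.26 on the right, apart from all other points in both panels.

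Single libraries stood apart in other ways. Celecoxib replicate 2 carried heart muscle transcripts, with 365 CPM of the myosin gene Myh6 against at most 27.6 CPM in the other 15 libraries. Control replicate 3 carried skeletal muscle transcripts, with 14.5 CPM of Acta1 against at most 1.02 CPM elsewhere. Celecoxib replicate 1 and control replicates 5 and 6 held 46.5, 112 and 74.1 CPM summed over 6 sympathetic neuron genes, among them the noradrenaline synthesis genes Th and Dbh, against at most 13.2 CPM in the rest. Celecoxib replicate 8 held 616 CPM of Lars2 and 15.4 CPM of the small nuclear RNA gene Rn7sk, against at most 40.1 and 3.55 CPM elsewhere.

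Over the 8 celecoxib and 8 control libraries, 5 genes were called, 1 higher and 4 lower. Pms2 rose, while Ddit4, Gadd45g, Rhbdd2 and Dusp1 fell. These 5 are 0.0344% of the genes tested, 0.00688% for the higher and 0.0275% for the lower direction. Without adjustment, 1122 genes were higher at a p under 0.05, or 7.72%, and 847 were lower, or 5.83%. The median log2 fold change of all genes tested was 0.001. At an adjusted p under 0.10 there were 9 higher and 10 lower genes, the called ones included. Within the pseudogene-rich set edgeR called 2 genes, 0.0135% of 14841, both lower: Ddit4 at -1.57 and Depp1 at -1.09, each with adjusted p = 0.0214. In that fit 782 genes were higher at an unadjusted p under 0.05, or 5.27%, and 878 were lower, or 5.92%. The celecoxib libraries of the pseudogene-poor set against the same controls gave 1086 calls, 488 higher, or 3.33%, and 598 lower, or 4.08%, and at an unadjusted p under 0.05 11.5% of the genes were higher and 10.7% lower. With a term for the set in the fit of all libraries edgeR called 0 genes, and 1012 reached an unadjusted p under 0.05. With that term Ddit4 was at -1.31 (SE 0.26), Gadd45g at -0.73 (SE 0.15) and Rhbdd2 at -0.43 (SE 0.09). Dusp1 was at -0.45 (SE 0.09) and Pms2 at 0.3 (SE 0.06), and the edgeR adjusted p of each of the 5 was 0.217. DESeq2 called 107 genes over all libraries, or 0.768%, and limma voom with sample weights 121, or 0.833%. Where no tool is named, called refers to edgeR over all libraries. Counts of list members below are to be read beside these shares of all genes in the same fit and direction.

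Single libraries moved the count as well. It was 0 without celecoxib replicate 7 or 8 or control replicate 3 or 4, 1 without celecoxib replicate 5 or control replicate 2, and 2 without control replicate 5 or 6. It was 3 without celecoxib replicate 1 or 4, control replicate 1 or 8, or rofecoxib replicate 1, 2 or 6, and 9 without rofecoxib replicate 8. Without celecoxib replicate 2, which carried the heart muscle transcripts, 34 genes were called, and without that library and control replicate 3 together 42, 23 higher and 19 lower. Without the 3 libraries rich in neuron genes 2 genes were called.

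Large differences ran mostly downward. Of the genes tested, 571 were more than 1.5-fold lower with celecoxib and 130 more than 1.5-fold higher, and beyond 2-fold the counts were 106 and 24. Processed pseudogenes made up 128 of the 571, or 22.4%, and 0 of the 130. Their median log2 fold change was -0.51 over all libraries, with 288 of 315 below 0. It was 0.00 within the pseudogene-rich set, with 158 of the 314 that could be fitted there below 0, and -1.41 for the pseudogene-poor celecoxib libraries against control. Rps2-ps10 (ENSMUSG00000069367), a processed copy of a ribosomal protein gene, lay at 0.133 to 1.34 CPM with celecoxib and at 1.07 to 2.85 CPM in control, and its log2 fold change of -1.48 (SE 0.32) became -1.14 within the pseudogene-rich set. Reads of such copies cannot be told apart with certainty from reads of their parent genes.

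Ddit4 encodes REDD1, an inhibitor of mTORC1 that stress and glucocorticoids induce. Celecoxib libraries ran from 19.7 through a median of 28.6 to 49.2 CPM, and control libraries from 67.1 through 79.0 to 107 CPM. The groups did not overlap, and the pseudogene-poor libraries 5 and 6 were the highest of the celecoxib group. The log2 fold change was -1.36 (SE 0.22, 95% interval -1.81 to -0.90, adjusted p = 0.0200). It was larger in size within the pseudogene-rich set, at -1.57 (SE 0.21), than for the pseudogene-poor celecoxib libraries, at -1.17. The difference between these values was not tested for celecoxib alone. Over both drug groups together the edgeR term for the set was -0.08 for Ddit4 (SE 0.23, adjusted p = 0.898). Ddit4 kept its call when any 1 library was left out except celecoxib replicates 7 and 8 and control replicates 3 and 4. It lost its call in replicates 1 to 4 alone (edgeR adjusted p = 0.0515) and in replicates 5 to 8 alone (adjusted p = 0.0714). The call was also lost without the 3 libraries rich in neuron genes and with a term for the set.

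Gadd45g, a growth arrest gene that cytokines and stress switch on, ran from 35.9 through 54.9 to 71.9 CPM with celecoxib and from 66.8 through 96.2 to 112 CPM in control. Only celecoxib replicate 6 reached into the control range, above control replicate 6. On the log2 scale the difference was -0.81 (SE 0.13, adjusted p = 0.0200). Within the pseudogene-rich set it was -0.76 (SE 0.13, adjusted p = 0.0785). Of 24 edgeR fits that each left out 1 library, 18 kept the call of Gadd45g, and over all 24 its adjusted p reached 0.0703. Gadd45g also lost its call in replicates 5 to 8 alone and with a term for the set. Its relatives on the same list were not called: Gadd45a was at -0.10 (SE 0.20) and Gadd45b at -0.21 (SE 0.26).

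Dusp1, the phosphatase that switches off p38 and JNK MAP kinases, ran from 118 through 131 to 161 CPM with celecoxib and from 164 through 182 to 207 CPM in control. The groups did not overlap, and the 4 pseudogene-poor libraries were the 4 lowest, at 118 to 125 CPM. The log2 fold change was -0.45 (SE 0.08, adjusted p = 0.0434). It was -0.32 (SE 0.09, adjusted p = 0.194) within the pseudogene-rich set and -0.60 for the pseudogene-poor celecoxib libraries. Over both drug groups together the edgeR term for the set was -0.01 for Dusp1 (SE 0.09, adjusted p = 0.971). Of 24 fits that each left out 1 library, 7 kept the call of Dusp1 and 8 that of Rhbdd2. Over all 24 the edgeR adjusted p of each gene reached 0.153. Dusp1 also lost its call with a replicate block, with library size alone and with no filter. It lost it as well in replicates 1 to 4 alone and without the 3 libraries rich in neuron genes. Rhbdd2 lost its call with no filter and in replicates 1 to 4 alone.

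In the deposited table these genes lie, on mm9, at chr10:59412221-59414720 (Ddit4, ENSMUSG00000020108), chr13:51941845-51944039 (Gadd45g, ENSMUSG00000021453) and chr17:26642333-26645666 (Dusp1, ENSMUSG00000024190). The promoters of these stress genes are shown because the genes moved in the same direction and respond to several signals. Each line gives the 250 bases before the start in RefSeq's annotation of GRCm38.p6, read along the gene's strand, at chr10:59951771-59952020 (minus strand) for Ddit4, chr13:51846425-51846674 (plus) for Gadd45g and chr17:26508473-26508722 (minus) for Dusp1. Capitals mark matches on either strand to the cAMP response element TGACGTCA and its shorter form TGACG, the E-box CACGTG, the CCAAT box, the TATA box TATAAA or the ATF4 composite element TGATGCAA, which may overlap.
Ddit4: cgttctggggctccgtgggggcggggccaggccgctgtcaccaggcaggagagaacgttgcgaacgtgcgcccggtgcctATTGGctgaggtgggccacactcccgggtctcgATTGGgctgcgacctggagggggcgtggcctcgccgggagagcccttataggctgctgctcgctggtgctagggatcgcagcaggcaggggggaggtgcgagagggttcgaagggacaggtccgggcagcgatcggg
Gadd45g: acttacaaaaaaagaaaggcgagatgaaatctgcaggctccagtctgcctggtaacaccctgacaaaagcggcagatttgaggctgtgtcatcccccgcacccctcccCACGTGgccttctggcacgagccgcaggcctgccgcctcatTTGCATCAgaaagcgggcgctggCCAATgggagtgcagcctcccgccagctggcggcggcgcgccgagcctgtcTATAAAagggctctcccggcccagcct
Dusp1: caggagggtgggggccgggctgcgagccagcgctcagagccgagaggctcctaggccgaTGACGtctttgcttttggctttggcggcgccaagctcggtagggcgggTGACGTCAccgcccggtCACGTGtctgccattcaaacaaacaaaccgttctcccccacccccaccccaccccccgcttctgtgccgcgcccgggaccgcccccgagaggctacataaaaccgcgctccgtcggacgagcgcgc
Dusp1 held a full cAMP response element that starts 143 bases before the start, a motif found in 2.7% of 10884 promoters of tested genes. Gadd45g held the ATF4 composite element, found in 0.542% of them, and a TATA box, found in 6.65%. Ddit4 held 2 CCAAT boxes, a motif found in 36.1%, and none of the other letters searched. The glucocorticoid response element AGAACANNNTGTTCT had 0 matches in all 10884 windows, which says only that these letters were not in these stretches.

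**Figure D2:**
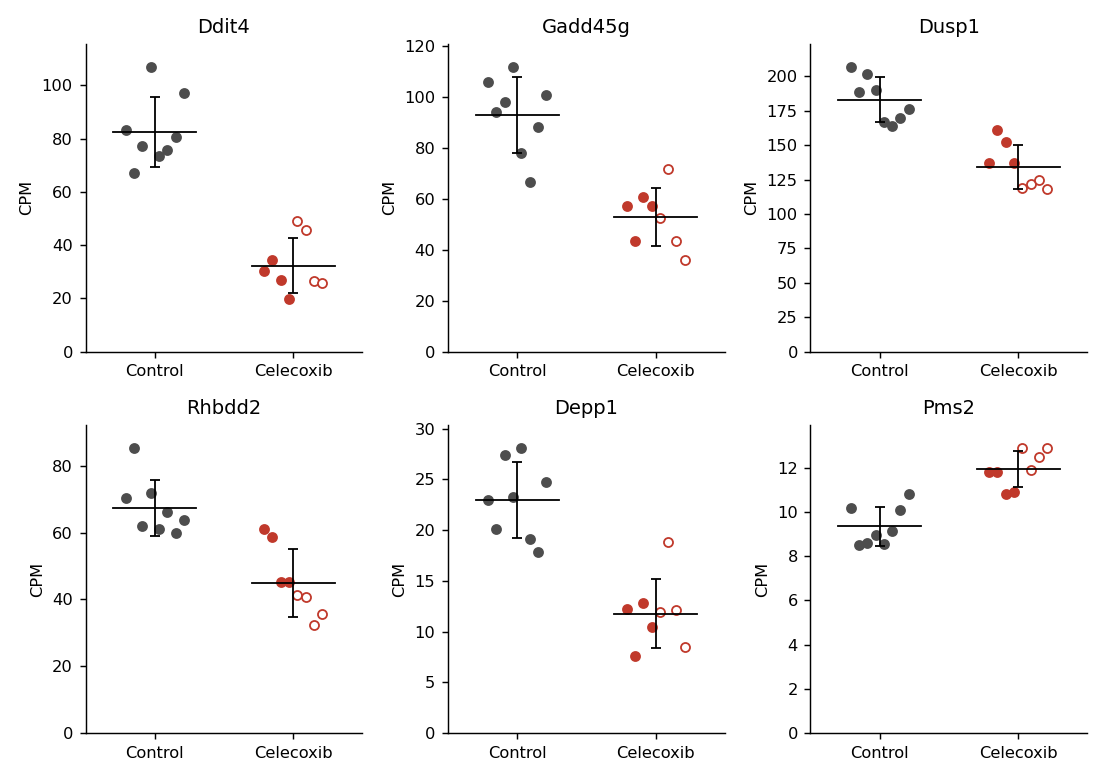
CPM of the 5 called genes and of Depp1 in each library; filled points are pseudogene-rich libraries, open points pseudogene-poor ones, and bars give the mean and SD of 8 libraries. Ddit4, Dusp1 and Pms2 show no overlap between groups, and the open points of Dusp1 and Rhbdd2 lie lowest among the celecoxib libraries.

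Ddit4 and Dusp1 also belong to a list of 20 glucocorticoid-responsive genes. Some members count in other lists too, such as Nfkbia and Lcn2 among the interleukin-1 and NF-kB genes. All 20 genes were tested. Of them 2 were called lower, 18 lay below 0 and 2 above, and 11 were lower and 0 higher at an unadjusted p under 0.05, against 5.83% of all genes for the lower side. The median was -0.33, against 0.001 for all genes. Sgk1, a kinase of ion transport, was at -0.37 (SE 0.10), Tsc22d3, which encodes the anti-inflammatory protein GILZ, at -0.67 (SE 0.26) and Fkbp5, a chaperone of the glucocorticoid receptor, at -0.46 (SE 0.20), with adjusted p of 0.163, 0.266 and 0.319. The metallothionein gene Mt2 was at 0.01 and Pik3ip1 at 0.21. The mean level of the list, in log2 CPM, ran from 7.34 to 7.88 with celecoxib and from 7.98 to 8.14 in control, and the lowest library was celecoxib replicate 8. Within the pseudogene-rich set the median was -0.21, with 19 of 20 members below 0, 4 of them at an unadjusted p under 0.05. For the pseudogene-poor celecoxib libraries it was -0.52, with 7 called lower against 4.08% of all genes. Over all libraries DESeq2 also called Sgk1, and limma voom Sgk1 and Errfi1.

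Other genes of stress and growth arrest were mixed. Of the 20 tested, 2 were called lower, Ddit4 and Gadd45g, 5 were lower and 1 higher at an unadjusted p under 0.05, and the median was -0.12. Txnip, which binds thioredoxin and limits glucose uptake, lay at 332 to 485 CPM with celecoxib and 533 to 620 CPM in control, with no overlap, at -0.42 (SE 0.10, adjusted p = 0.105). The transcription factor genes of the integrated stress response, Atf4 at 0.11 (SE 0.07) and Ddit3 at 0.22 (SE 0.10, adjusted p = 0.336), were on the other side of 0. Their target Trib3 was at -0.14 (SE 0.15).

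Depp1, named 8430408G22Rik in the table, is a FOXO target that lay just outside the threshold. It ran from 7.54 through 12.0 to 18.8 CPM with celecoxib and from 17.8 through 23.2 to 28.1 CPM in control, and only celecoxib replicate 6 reached the control range. The log2 fold change was -0.96 (SE 0.18, adjusted p = 0.0511), and it was called within the pseudogene-rich set. Its row overlaps that of Rassf4, which was at -0.28 (SE 0.18, adjusted p = 0.492). Rasd1, a Ras-related gene first found as dexamethasone-induced, was at -1.25 (SE 0.24, adjusted p = 0.0511) and Cebpb, a transcription factor of the acute phase response, at -0.79 (SE 0.17, adjusted p = 0.0874). Cebpb lay at 33.6 to 71.0 CPM with celecoxib and at 76.1 to 126 CPM in control, without overlap.

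Immediate early genes, the first to be transcribed after a stimulus, had 27 tested members, 18 below 0 and 9 above, with a median of -0.29. At an unadjusted p under 0.05, 8 were lower and 1 higher. EdgeR called 0, and DESeq2 and limma voom each called 1, Klf2, lower. Klf2, which blood flow induces in endothelium, lay at 42.0 to 73.4 CPM with celecoxib and at 73.2 to 98.9 CPM in control, at -0.49 (SE 0.12, adjusted p = 0.133). It was at -0.31 (SE 0.13) within the pseudogene-rich set and at -0.70 (adjusted p = 0.00312) for the pseudogene-poor celecoxib libraries. DESeq2 gave it an adjusted p of 0.0217 and limma voom 0.0309. Arc was at -0.76 (SE 0.22), Zfp36, which destabilises cytokine mRNAs, at -0.80 (SE 0.26) and Egr1 at -0.58 (SE 0.23). Ccn1, a matrix-associated gene induced by growth factors, stood on the other side at 0.89 (SE 0.26, adjusted p = 0.189). Among 10 MAP kinase phosphatases edgeR called Dusp1 alone, Dusp10 was at 0.79 (SE 0.19, adjusted p = 0.125) and Dusp14 at 0.79 (SE 0.31, adjusted p = 0.276), and the median was 0.04. Dusp10 lay above every control in 7 of 8 celecoxib libraries, and DESeq2 and limma voom called it higher, with adjusted p of 0.0174 and 0.0162.

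Genes that interleukin-1β induces through NF-kB had log2 fold changes mostly below 0 and a wide spread between libraries. Of 38 tested members 37 lay below 0, 11 were lower and 0 higher at an unadjusted p under 0.05, and the median was -0.48. EdgeR and DESeq2 called 0 of them, and limma voom 1, Ptx3. Within the pseudogene-rich set 38 of 38 lay below 0, 19 of them at an unadjusted p under 0.05 against 5.92% of all genes, and the median was -0.64. For the pseudogene-poor celecoxib libraries 34 of 38 lay below 0, 1 at an unadjusted p under 0.05 against 10.7% of all genes, and the median was -0.37.

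Il6, the fever and acute phase cytokine gene, ran from 9.33 through a median of 15.02 to 56.5 CPM with celecoxib and from 25.8 through 39.7 to 114 CPM in control. Celecoxib replicates 5 and 6 lay within the control range and the other 6 below it. The log2 fold change was -1.37 (SE 0.51, adjusted p = 0.256), and it was -2.24 (SE 0.55, adjusted p = 0.143) within the pseudogene-rich set. Ptx3, a soluble pattern recognition gene of the vessel wall, lay at 23.6 to 105 CPM with celecoxib and at 74.4 to 258 CPM in control, at -1.54 (SE 0.46, adjusted p = 0.189). Only celecoxib replicate 6 overlapped the controls. Saa3, an acute phase gene, was at -0.51 (SE 0.17, adjusted p = 0.218).

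Chemokine genes varied widely from library to library. Cxcl1, a neutrophil chemokine gene, ranged from 102 to 950 CPM among celecoxib libraries and from 228 to 1426 CPM among controls, and its log2 fold change of -1.03 had an SE of 0.55. Cxcl2 was at -1.76 (SE 0.63, adjusted p = 0.245). Ccl2, the monocyte chemokine gene, was at -0.46 (SE 0.38) over all libraries, at -1.13 (SE 0.40) within the pseudogene-rich set and at 0.00 for the pseudogene-poor celecoxib libraries. The leukocyte adhesion gene Icam1 was at -0.24 (SE 0.26) and Vcam1 at -0.33 (SE 0.17). Il1r1, the signalling receptor for interleukin-1, was at 0.01 (SE 0.15), while the decoy receptor Il1r2, which is also a neutrophil marker, was at -1.05 (SE 0.41, adjusted p = 0.278).

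Interferon-stimulated genes also lay mostly below 0. Of 31 tested, 30 lay below 0, 14 were lower at an unadjusted p under 0.05, and the median was -0.35. EdgeR, DESeq2 and limma voom each called 0. Within the pseudogene-rich set all 31 lay below 0, 24 of them at an unadjusted p under 0.05 against 5.92% of all genes, with 0 called and a median of -0.62. For the pseudogene-poor celecoxib libraries 24 lay below 0 and 7 above, 0 were lower and 1 higher at an unadjusted p under 0.05, 0 were called, and the median was -0.18. Rtp4, a chaperone of receptor trafficking, lay at 17.1 to 34.6 CPM with celecoxib and at 27.9 to 39.1 CPM in control, and only celecoxib replicate 5 reached the controls, at -0.55 (SE 0.19, adjusted p = 0.233). Oas1a, an antiviral RNA sensor, was at -0.51 (SE 0.19, adjusted p = 0.255) and the chemokine gene Cxcl10 at -0.91 (SE 0.39, adjusted p = 0.313). The mean level of the list ran from 4.83 to 5.22 log2 CPM in the 4 pseudogene-rich celecoxib libraries, from 5.18 to 5.87 in the other 4 and from 5.49 to 5.87 in control. Of the 8 celecoxib libraries 7 lay below every control, all but replicate 5.

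Markers of blood leukocytes are given beside these lists, and their part in the result was not tested. In bulk tissue, fewer cells of a type and less RNA per cell cannot be told apart. All 13 tested neutrophil markers lay below 0, with a median of -0.81, 7 at an unadjusted p under 0.05 and 0 called. Within the pseudogene-rich set 9 of the 13 were lower at an unadjusted p under 0.05, against 5.92% of all genes, with a median of -0.89. For the pseudogene-poor celecoxib libraries 0 were, against 10.7% of all genes, with 12 below 0 and a median of -0.65. The summed level of neutrophil markers was 208.5 to 487 CPM with celecoxib and 274 to 443 CPM in control, most of it Lcn2, which vessel wall cells also express. The neutrophil alarmin genes S100a8 and S100a9 were at -0.94 (SE 0.37) and -0.88 (SE 0.39), and the chemokine receptor gene Cxcr2 at -1.06 (SE 0.42). Macrophage and monocyte markers had 13 of 14 tested members below 0, but 0 at an unadjusted p under 0.05, and a median of -0.20, which was -0.42 in the pseudogene-rich set and 0.02 for the pseudogene-poor celecoxib libraries. Their summed level was 134 to 295.5 CPM with celecoxib and 195 to 305 CPM in control, and no defining marker of either type was at 0 reads throughout. Of 14 T and B lymphocyte markers 2 passed the filter, 1 above and 1 below 0, with a median of -0.06.

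**Figure D3:**
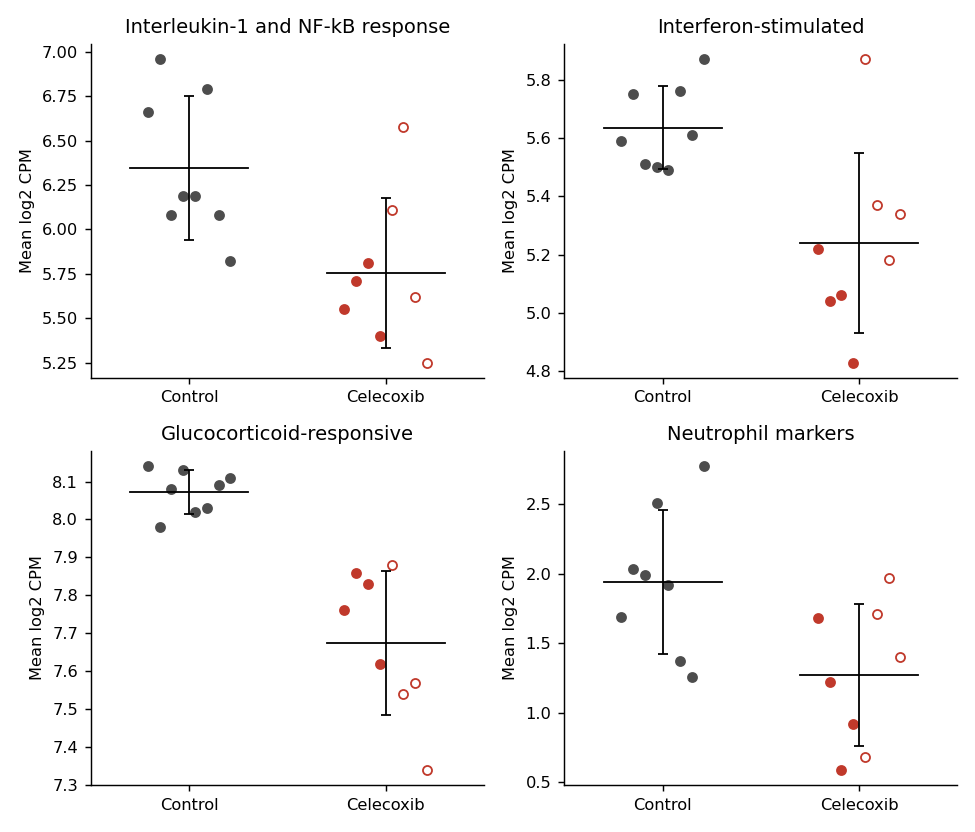
Mean log2 CPM of the tested members of 4 gene lists in each library; filled points are pseudogene-rich libraries, open points pseudogene-poor ones, and bars give the mean and SD of 8 libraries. For interferon-stimulated genes 7 of 8 celecoxib points lie below every control, among them the filled ones at 4.83 to 5.22. For glucocorticoid-responsive genes all 8 celecoxib points do.

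Genes of cholesterol synthesis and uptake leaned to the higher side. Of 23 tested, 12 were higher and 0 lower at an unadjusted p under 0.05, 16 lay above 0, and the median was 0.22. EdgeR called 0 of them over all libraries, DESeq2 7 and limma voom 4, all higher, Msmo1, Sqle and Cyp51 by both. The median was 0.16 within the pseudogene-rich set, with 8 of 23 at an unadjusted p under 0.05 against 5.27% of all genes, and 0.28 for the pseudogene-poor celecoxib libraries, where edgeR called 8 higher against 3.33% of all genes. The mean level of the list, in log2 CPM, ran from 4.14 through 4.30 to 4.65 with celecoxib and from 4.05 through 4.16 to 4.29 in control. Of the celecoxib libraries, 4 lay above every control, and replicate 8 was the highest.

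The enzymes that turn squalene into lanosterol and demethylate it all had an unadjusted p under 0.05. Sqle, squalene epoxidase, was at 0.47 (SE 0.11, adjusted p = 0.105), Lss, lanosterol synthase, at 0.32 (SE 0.11, adjusted p = 0.236) and Cyp51, lanosterol demethylase, at 0.49 (SE 0.11, adjusted p = 0.105). Msmo1, the C4-methylsterol oxidase listed as Sc4mol, lay at 31.9 to 51.5 CPM with celecoxib and at 23.7 to 34.2 CPM in control, with 7 of 8 celecoxib libraries above every control, at 0.45 (SE 0.10, adjusted p = 0.0874). Earlier in the pathway the isomerase gene Idi1 was at 0.40, while Fdft1, the squalene synthase gene, was at -0.11. Srebf2, the transcription factor gene that drives the pathway, was at 0.00 (SE 0.11). Insig1, which holds that factor back in the endoplasmic reticulum, was at 0.32 (SE 0.15), and the sterol carrier gene Stard4 at 0.33 (SE 0.08, adjusted p = 0.135).

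**Figure D4:**
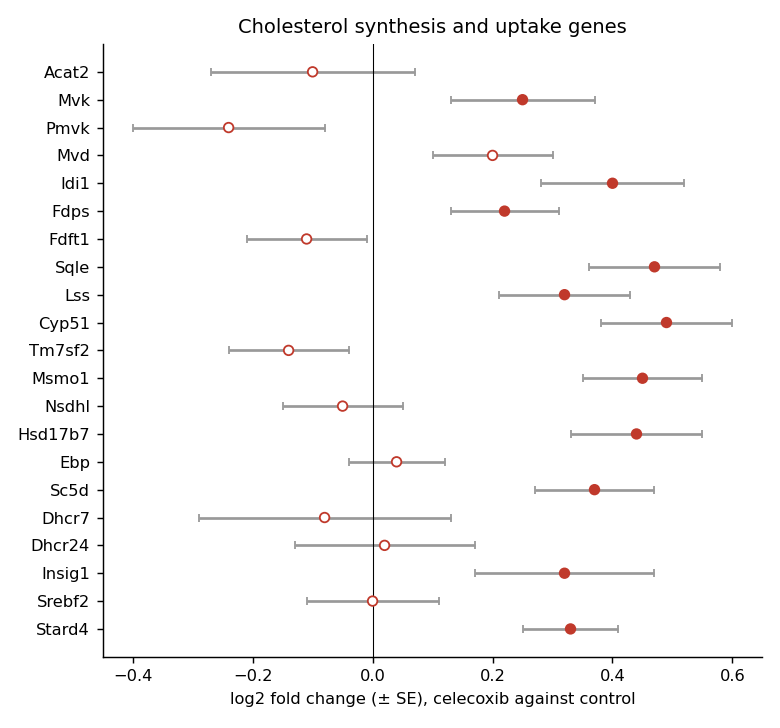
Log2 fold change of celecoxib over control with its SE for 21 of the 23 tested genes of cholesterol synthesis and uptake, in pathway order; filled points reached an unadjusted p under 0.05. The 11 filled points all lie above 0, from 0.22 to 0.49.

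The Msmo1 promoter is shown as an example of this group. Its 250 bases before the start lie at chr8:64733579-64733828 (minus strand) in GRCm38.p6, with matches to CCAAT, on which the nuclear factor Y binds beside sterol-sensing sites, in capitals.
Msmo1: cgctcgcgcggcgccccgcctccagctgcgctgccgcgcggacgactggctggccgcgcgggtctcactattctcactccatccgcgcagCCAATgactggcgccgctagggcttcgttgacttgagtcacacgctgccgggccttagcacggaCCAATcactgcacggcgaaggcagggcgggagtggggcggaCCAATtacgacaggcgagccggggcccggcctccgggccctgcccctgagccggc
It held 3 matches. Of the 16 list members with a window, 14 held CCAAT on either strand, or 87.5%, against 36.1% of all 10884 promoters. The sterol regulatory element TCACCCCAC had 0 matches in these 16 windows and was found in 0.487% of all. Of the 29 interleukin-1 and NF-kB genes with a window, 7 held the NF-kB element GGGNNTTTCC, or 24.1%, against 1.49% of all promoters, among them Il6, Cxcl1 and Cxcl2.

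Pms2, a DNA mismatch repair gene, was the called gene on the higher side. It ran from 10.8 through 11.9 to 12.9 CPM with celecoxib and from 8.5 through 9.05 to 10.8 CPM in control. The groups did not overlap, but celecoxib replicate 3 and control replicate 8 differed by less than the rounding of these values. Its log2 fold change was 0.35 (SE 0.06, adjusted p = 0.0305), and within the pseudogene-rich set it was 0.28 (SE 0.08, adjusted p = 0.180). Of 24 edgeR fits that each left out 1 library, 15 kept the call of Pms2, and over all 24 its adjusted p reached 0.106. Pms2 also lost its call with no filter, in replicates 1 to 4 alone, in replicates 5 to 8 alone and without the 3 libraries rich in neuron genes. Its row (ENSMUSG00000079109, mm9 chr5:144670631-144698380) overlaps those of Aimp2, at 0.24 (SE 0.07, adjusted p = 0.189), and Rsph10b, and with no strand setting given their reads cannot be told apart. Of the 8 tested mismatch repair genes 7 lay above 0 and Pms2 alone was called, and their median of 0.13 was 0.01 within the pseudogene-rich set.

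Rhbdd2, a rhomboid-related gene of the Golgi (ENSMUSG00000039917, mm9 chr5:136108286-136122520), ran from 32.4 through 43.2 to 60.9 CPM with celecoxib and from 59.8 through 64.9 to 85.3 CPM in control. The pseudogene-poor libraries were the 4 lowest, at 32.3 to 41.2 CPM, and celecoxib replicate 1 overlapped the controls. Its log2 fold change was -0.58 (SE 0.11, adjusted p = 0.0434), -0.36 (SE 0.10, adjusted p = 0.194) within the pseudogene-rich set and -0.85 for the pseudogene-poor celecoxib libraries. Over both drug groups together the edgeR term for the set was -0.35 for Rhbdd2 (SE 0.08, adjusted p = 0.00852). Rhbdd2 was thus among the 908 genes that this term called. Among the other 8 rhomboid family genes 0 were called and Rhbdd1 was at 0.10 (SE 0.05).

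Cytosolic ribosomal protein genes were all on the higher side, by little. Of 74 tested, 74 lay above 0 and 40 were higher at an unadjusted p under 0.05, against 7.72% of all genes. EdgeR, DESeq2 and limma voom each called 0, and the median was 0.13. Within the pseudogene-rich set the median was 0.04, with 55 above 0 and 19 below. There 3 were higher at an unadjusted p under 0.05, against 5.27% of all genes. For the pseudogene-poor celecoxib libraries the median was 0.22, with 57 of 74 called higher, against 3.33% of all genes. Rpl35 lay at 116 to 131 CPM in the pseudogene-rich celecoxib libraries, at 154 to 165 CPM in the pseudogene-poor ones and at 94.9 to 120 CPM in control. Rps20 lay at 301 to 329 CPM with celecoxib and at 249 to 300.4 CPM in control, at 0.17 (SE 0.05, adjusted p = 0.189), and kept 0.18 within the pseudogene-rich set.

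Of the drug's own pathway 0 genes were called. Of 20 tested prostanoid genes, 9 lay above and 11 below 0, with 1 higher and 1 lower at an unadjusted p under 0.05 and a median of -0.07. Ptgs2, the target of celecoxib, ran from 62.2 through 109 to 199 CPM with celecoxib and from 79.9 through 128 to 194 CPM in control. The ranges overlapped widely, the lowest being the pseudogene-poor libraries 7 and 8 and the highest celecoxib replicate 2. Its log2 fold change was -0.29 (SE 0.22, 95% interval -0.75 to 0.17, adjusted p = 0.568). Ptgs1, the constitutive enzyme gene, was at 0.11 (SE 0.17), the prostaglandin E synthase gene Ptges at -0.08 (SE 0.21) and the prostacyclin synthase gene Ptgis at -0.08 (SE 0.10). The prostaglandin E2 receptor gene Ptger4 was at 0.19 (SE 0.15). Hpgds at 0.64 and Ptgds at -0.99, prostaglandin D2 synthases with means of at most 0.5 CPM in either group, were the members with the smallest p.

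Carbonic anhydrases, which sulfonamides such as celecoxib can inhibit, had 11 tested members, 10 of them below 0, with 0 at an unadjusted p under 0.05 and a median of -0.21. Xenobiotic metabolism genes had 25, with a median of -0.05 and 1 higher and 1 lower at an unadjusted p under 0.05. Por, the reductase that feeds electrons to cytochromes P450, was at -0.21 (SE 0.09) and Srxn1, an antioxidant gene, at 0.15 (SE 0.06). Circadian clock genes had a median of 0.02 over 18 members, with Per1 at -0.28 (SE 0.13) and Cry1 at 0.38 (SE 0.18).

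Among extracellular matrix, contractile and vasoactive genes edgeR called 0 over all libraries, and DESeq2 and limma voom 1, the matrix gene Ccn5. For the pseudogene-poor celecoxib libraries edgeR called 6 matrix genes lower and 3 higher, and 1 vasoactive gene, Ace, lower. Of all genes in that fit 4.08% were called lower and 3.33% higher. Extracellular matrix genes had 23 of 30 members below 0, 7 lower and 1 higher at an unadjusted p under 0.05 and a median of -0.12. Col1a1, the main fibrillar collagen gene, was at -0.35 (SE 0.14, adjusted p = 0.267), but at -0.14 (SE 0.15) within the pseudogene-rich set. The member on the higher side was Ccn5, listed as Wisp2, a growth inhibitor of smooth muscle: it lay at 184 to 310.0 CPM with celecoxib and at 121 to 197 CPM in control, with 7 of 8 libraries above every control. Its log2 fold change was 0.58 (SE 0.12, adjusted p = 0.0795, or 0.00339 by DESeq2 and 0.0182 by limma voom) and 0.56 (SE 0.12, adjusted p = 0.122) within the pseudogene-rich set. Contractile smooth muscle genes had a median of 0.09, with Tagln at 0.13 (SE 0.07). Of 21 vasoactive and endothelial function genes 1 was lower at an unadjusted p under 0.05, the converting enzyme gene Ace at -0.27 (SE 0.10), which was -0.09 in the pseudogene-rich set. The endothelial nitric oxide synthase gene Nos3 was at 0.09 (SE 0.20).

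Heat shock chaperones split by set among the celecoxib libraries. Their median was -0.03 over all libraries. It was 0.13 within the pseudogene-rich set, with 17 of 18 above 0 and 6 at an unadjusted p under 0.05, against 5.27% of all genes. For the pseudogene-poor celecoxib libraries it was -0.26, with 17 of 18 below 0. There 7 were lower at an unadjusted p under 0.05, against 10.7% of all genes, and 4 were called lower, against 4.08%. Within the drug groups the term for the set had a median of -0.11 over these genes. It called 1 of them, lower, against 6.25% of all genes in either direction. Hspa1a, the inducible chaperone gene, lay at 29.3 to 49.8 CPM in the 4 pseudogene-rich celecoxib libraries, at 11.9 to 19.4 CPM in the other 4 and at 13.7 to 26.9 CPM in control. The first 4 were above every control. Within the drug groups the edgeR term for the set was -0.34 for Hspa1a (SE 0.30, adjusted p = 0.644).

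Markers of tissue around the vessel varied between single libraries, and edgeR, DESeq2 and limma voom called 0 of them over all libraries. Brown adipocyte markers had a median of -0.48 and general adipocyte markers -0.33, and Ucp1, the heat-producing uncoupling gene, lay at 11.1 to 215 CPM with celecoxib and at 57.7 to 602 CPM in control. Adventitial fibroblast markers were at 0.07 over all libraries, but at -0.24 with 12 of 12 below 0 within the pseudogene-rich set and at 0.33 for the pseudogene-poor celecoxib libraries. Schwann cell markers had 10 of 11 below 0 and a median of -0.67, and their mean level was highest in control replicate 5, at 3.78 log2 CPM, against 1.42 to 2.53 with celecoxib. Cardiac muscle genes had a median of 2.20, with Actc1 at 182 CPM in celecoxib replicate 2 and at 0.290 to 13.7 CPM in the other celecoxib libraries. Of 6 tested mast cell markers 4 lay above 0 and 2 below, and the median of their summed level was 55.7 CPM with celecoxib and 56.8 CPM in control. The members with the smallest p, the protease genes Cma1 and Tpsb2, were at 0.88 (SE 0.25, adjusted p = 0.188) and 0.77 (SE 0.29, adjusted p = 0.260). The platelet genes Gp9 and Ppbp were at -1.26 (SE 0.40, adjusted p = 0.206) and -1.07 (SE 0.37, adjusted p = 0.233).

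**Figure D5:**
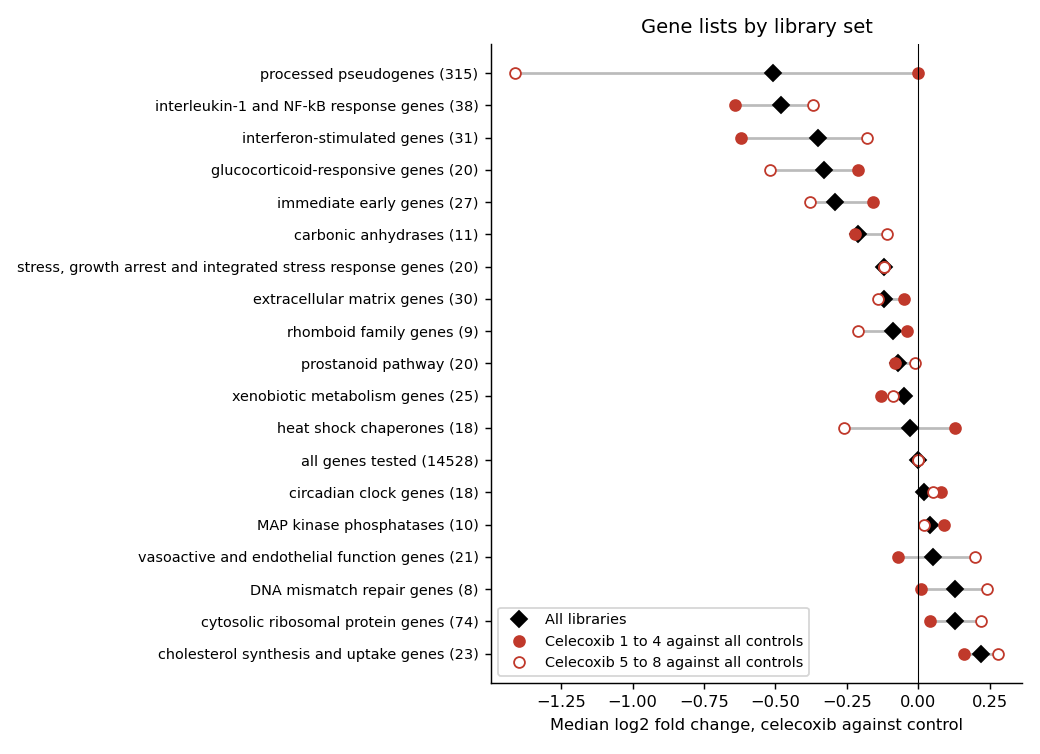
Median log2 fold change of celecoxib over control for 17 pathway lists, processed pseudogenes and all tested genes, with the number of tested members in parentheses; diamonds use all libraries, filled points the 4 pseudogene-rich and open points the 4 pseudogene-poor celecoxib libraries, each against all 8 controls. Pseudogenes lie at 0.00 in the filled and -1.41 in the open point, interferon-stimulated genes at -0.62 and -0.18, and cholesterol genes at 0.16 and 0.28.

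Genes whose 8 celecoxib libraries all lay on one side of all 8 controls numbered 13 higher, or 0.0895%, and 21 lower, or 0.145%. Besides those described, the higher ones included Fzd7, a Wnt receptor gene, at 0.55 (SE 0.13), Rpa1, a single-strand DNA binding protein gene, at 0.32 (SE 0.08) and Fads1, a fatty acid desaturase gene, at 0.24 (SE 0.06). The lower ones included Dynll2, a dynein light chain gene, at -0.21 (SE 0.04), Ap4b1, an adaptor of vesicle transport, at -0.32 (SE 0.07), Tiparp, a target of the aryl hydrocarbon receptor, at -0.69 (SE 0.18) and the mitochondrial carrier gene Ucp2 at -0.67 (SE 0.20). Dynll2 was within 81.2 to 90.8 CPM with celecoxib and 92.8 to 106 CPM in control, a small difference over a narrow spread. Their adjusted p was 0.0874 or more, and Fzd7, Rpa1, Fads1, Tiparp and Ucp2 were chosen for this lack of overlap.

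Other genes near the threshold came from many functions. On the higher side Rasl11a, a small GTPase gene, was at 0.55 (SE 0.11), Intu, a gene of cilium assembly, at 0.45 (SE 0.10), the host gene Snhg4 at 0.39 (SE 0.08) and the zinc finger gene Zfp3 at 0.46 (SE 0.10). Fubp1, a regulator of Myc, was at 0.32 (SE 0.07), Smg5, a factor of nonsense-mediated decay, at 0.17 (SE 0.04) and the retinaldehyde reductase gene Dhrs3 at 0.31 (SE 0.07). On the lower side Arrdc2, an arrestin-domain gene, was at -0.85 (SE 0.19) and the sterol transporter gene Gramd1c at -0.44 (SE 0.10). Their adjusted p lay between 0.0874 and 0.105. Intu and Snhg4 were at 0.26 (SE 0.11) and 0.24 (SE 0.09) within the pseudogene-rich set, and Arrdc2 at -0.57 (SE 0.18).

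Against rofecoxib, at its own dose of 50 mg/kg/day, 710 genes were called, or 4.89%, 82 higher with celecoxib and 628 lower. None of the 5 genes called against control was among them: Ddit4 differed between the drugs by -0.36 (adjusted p = 0.345), Gadd45g by -0.30 (adjusted p = 0.180), Dusp1 by 0.17 (adjusted p = 0.222), Rhbdd2 by 0.16 (adjusted p = 0.415) and Pms2 by 0.06 (adjusted p = 0.576). Both drug groups share the same controls, and each gene's log2 fold change of rofecoxib over control was -1.0, -0.52, -0.62, -0.74 and 0.29 in the same order. Single libraries moved the 710: the count was 0 without celecoxib replicate 2 or 3 or rofecoxib replicate 2, 3 or 7, at most 3 without celecoxib replicate 4 or 5 or rofecoxib replicate 4, and 1997 without rofecoxib replicate 8. It was 240 without rofecoxib replicate 1, and 363 and 447 without control replicates 6 and 2. In replicates 1 to 4 alone 2073 genes were called, and in replicates 5 to 8 alone 0.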

How the data were processed

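Gene expression in thoracic aorta was measured by poly(A) RNA sequencing in 24 libraries, 8 per group. The submitters' processing notes name CASAVA 1.8.1, STAR 2.5.1b and the build mm9; for the counting tool, annotation and strand setting the sources used here give nothing. Read counts for 25941 genes were deposited as 1 table. Totals were nearly equal, 21668798 to 21700121, so the depth before any equalisation is unknown.

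From the counts, edgeR 4.0.16 (R 4.3.3) filtered low genes by expression, scaled by TMM and ran the quasi-likelihood test, with Benjamini-Hochberg adjustment over 14528 genes. Log2 CPM values used a prior count of 2. All 24 libraries entered the fit to estimate the spread. The script was tested on simulated data. Groups came from the labels, and p-values set each group difference against the spread between libraries within groups. Within the celecoxib and the control group, no pair of libraries agreed within sampling noise, and other pairs were not examined. Alternatives used DESeq2 1.42.0, limma 3.58.1, other scalings, filters, designs, library subsets and left-out libraries. Named genes were up to 12 per direction with the smallest p and a mean of at least 1 CPM, 10 fixed genes and 2 members per list, and others are named as list members. Members and lists were chosen with earlier results of these data known. Pseudogene biotypes came from GENCODE M21 and promoters from RefSeq. Some genes are not reported here.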

Additional observations from a re-analysis of the deposited data

Results flagged for a closer look

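Of 168 groups of 8 libraries examined, 10 held a library whose gap to the nearest other was large against the group's range by Dixon's 95% criterion, where chance gives about 5%. Celecoxib replicate 2 stood apart in genes that heart muscle expresses, with 34 CPM of the calcium pump regulator gene Pln against 5.02 to 11.4 CPM in the other celecoxib libraries and 57.8 CPM of the troponin gene Tnni3 against 1.18 to 5.64 CPM. It was also highest in Gramd1c, at 7.59 CPM against 6.09 to 6.46 CPM. Control replicate 3 stood apart in the skeletal muscle genes Acta1, at 14.5 CPM against 0.143 to 1.02 CPM, and Mylpf, at 4.3 CPM against 0.283 to 0.651 CPM. The same library was lowest in Ace, at 328 CPM against 405 to 463 CPM, and in the cartilage proteoglycan gene Acan, at 28.3 CPM against 39 to 49.2 CPM. Control replicate 4 was lowest in Rpl35, at 94.9 CPM against 112 to 120 CPM. Control replicate 7 was lowest in the fat synthesis gene Thrsp, at 25.8 CPM against 100 to 261 CPM. Celecoxib replicate 7 was lowest in Rps2-ps10, at 0.133 CPM against 0.535 to 1.34 CPM.

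Some named genes differed between the drugs. The log2 difference of celecoxib minus rofecoxib, fitted with edgeR and adjusted by Benjamini-Hochberg, was -2.32 (adjusted p = 0.0369) for the myelin gene Mbp, which was at -1.13 with celecoxib and 1.19 with rofecoxib over the shared controls. Among fat genes, Elovl3 differed by -2.46 (adjusted p = 0.0423), Lep by -1.48 (adjusted p = 0.0423) and Thrsp by -1.36 (adjusted p = 0.0401), and Lep was above control with both drugs, at 0.78 and 2.26. Among leukocyte genes, Cxcr2 differed by -1.81 (adjusted p = 0.0369), Csf1r by -0.65 (adjusted p = 0.0369) and Adgre1 by -0.57 (adjusted p = 0.0423). Cpn2 differed by -1.73 (adjusted p = 0.0372) and Dynll2 by -0.24 (adjusted p = 0.0347), the latter from -0.21 and 0.03. The doses of the drugs differ, the controls are shared, and 0 genes were called between the drugs by edgeR without celecoxib replicate 2, with 2883 at an unadjusted p under 0.05.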

How the results depend on the processing

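The 5 calls of celecoxib against control changed in number with the processing, and the 5 differences kept their direction. RLE scaling gave 5 calls, library size alone 7 and a mean of at least 1 CPM 7. DESeq2 gave 107, limma voom 121, no filter 2, only the 2 groups compared 45, fat and skeletal muscle covariates 81, replicates 1 to 4 alone 9, replicates 5 to 8 alone 313 and a term for these 2 blocks of replicates 174. Alternatives chosen after seeing the data gave 42 without the 2 libraries with muscle genes, 2 without the 3 with neuron genes, 2 in the pseudogene-rich set, 1086 for the pseudogene-poor celecoxib libraries and 0 with a term for the set. Leaving out each library in turn gave 0 to 34 calls. In these fits Ddit4 stayed between -1.47 and -1.28, Gadd45g between -0.89 and -0.75, Rhbdd2 between -0.66 and -0.53, Dusp1 between -0.49 and -0.42 and Pms2 between 0.34 and 0.38. Over the other 17 alternatives the ranges were -1.59 to -1.16, -0.93 to -0.71, -0.85 to -0.36, -0.60 to -0.32 and 0.28 to 0.42 in the same order.

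With a replicate block, 27 genes were called against control, 9 higher and 18 lower, Dusp1 not among them, and 0 against rofecoxib. Replicate numbers shared between celecoxib and control had correlations of -0.166 to 0.267, 4 of 8 over 0.1, and 2 of 8 celecoxib libraries correlated best with their own number.

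The 710 calls against rofecoxib became 1425 with DESeq2, 2073 in replicates 1 to 4, 0 in replicates 5 to 8, 0 without a filter and 0 with the covariates. In the added alternatives they became 0 without the muscle libraries, 284 without the neuron libraries, 2455 in the pseudogene-rich set and 0 in the pseudogene-poor set. Left-out libraries gave 0 to 1997. The 34 genes without overlap became 35 to 68 when a library was left out.

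Some single genes changed sign. Ptgs1 was at -0.04 with limma voom, -0.06 in replicates 1 to 4, -0.22 in the pseudogene-rich set, -0.02 with the set term and -0.02 to 0.20 when a library was left out, below 0 only without celecoxib replicate 7. In replicates 1 to 4 Ptgs2 was at 0.04, Ptgis at 0.17, Nos3 at -0.24 and Hspb8 at 0.02. In the pseudogene-rich set Ptgis was at 0.11, Nos3 at -0.02, Hspb8 at 0.02 and Cd34 at -0.02. In replicates 5 to 8 Ptges was at 0.45, Ccl2 at 0.46, Car4 at 0.24, Hspa1a at -0.20, Mylpf at 0.30 and Comp at 0.06. For the pseudogene-poor celecoxib libraries Ptges was at 0.18 and Hspa1a at -0.39, and without the muscle libraries Ptges was at 0.03. Ccl2 was at 0.00 for the pseudogene-poor celecoxib libraries, with no clear direction. The causes were not tested.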
